A study of Mus musculus with 6 samples.

Results

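The insulin-like growth factor axis of C2C12 cells was described across 6 mRNA libraries. Its members were taken by name from the deposited expression table: the ligands Igf1 and Igf2, the imprinted transcript H19, the receptor Igf1r and the binding proteins Igfbp2 to Igfbp7. Of these 10 names, 9 had an entry among the 20950 entries of the table, and 7 of the 9 reached a mean of 1 FPKM. An FPKM value is a fragment number scaled for how long the transcript is and how deeply the library was read, so levels of different genes are compared here per length. H19 was not analysed here, and Igf1 and Igfbp3 lay below the mean of 1 FPKM and are given as levels without a test.

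C2C12 is a mouse myoblast line that leaves the cell cycle and fuses into myotubes when serum is lowered. The series asked how exosomes from fetal bovine serum (FBS) act on that differentiation. Growing cells in 10% FBS gave 1 library. Cells moved to differentiation medium with 2% horse serum (HS) gave 1 library, and cells in 2% HS with added exosomes gave 1. Cells moved to 0.2% FBS gave 1 library, and cells in 0.2% FBS with added exosomes gave 2, called replicates 1 and 2. The exosomes had been isolated from FBS and were added at the amount that 10% FBS holds, so the growing cells also met exosomes in their serum. All 6 libraries came from 1 cell line, and no label says that they were separate cultures, so every p-value measures only the spread between these libraries.

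Insulin-like growth factors are secreted peptides related to insulin. They bind Igf1r, a receptor tyrosine kinase that recruits insulin receptor substrates and activates PI3K, Akt and mTOR. Myoblasts make their own Igf2 as they differentiate, and Igf2 acts back on the same cells through Igf1r. Igf2r clears the ligand instead of signalling. The binding proteins hold the ligands outside the cell and can block or prolong their action, and proteases cut them to set the ligands free. Igf2 is imprinted and is expressed from the paternal copy in most tissues.

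The members that differed most with exosomes in 0.2% FBS lie at 2 places in the genome (GENCODE vM21, mm10). Igfbp2 (ENSMUSG00000039323.18) spans chr1:72824503-72852474 on the plus strand, and Igfbp5 (ENSMUSG00000026185.8) spans chr1:72857932-72874884 on the minus strand. The genes point toward each other, with 5457 bases between their ends. Igf2 (ENSMUSG00000048583.16) spans chr7:142650766-142666816 on the minus strand, with 11839 bases to Ins2. The sequences before the starts of these 3 genes are shown because their levels carry the main result, and they come from RefSeq on GRCm38.p6, the assembly that mm10 names. Capitals mark E-box matches (CANNTG, the motif class bound by Myod1 and Myog) and GC-box matches (GGGCGG), searched on both strands.
Igfbp2, chr1:72824230-72824479, plus strand: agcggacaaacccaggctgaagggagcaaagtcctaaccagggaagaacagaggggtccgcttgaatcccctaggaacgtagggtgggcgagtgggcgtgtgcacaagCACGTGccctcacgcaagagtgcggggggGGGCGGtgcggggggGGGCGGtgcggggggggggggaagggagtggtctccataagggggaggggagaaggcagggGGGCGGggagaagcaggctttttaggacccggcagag
Igfbp5, chr1:72874885-72875115, minus strand: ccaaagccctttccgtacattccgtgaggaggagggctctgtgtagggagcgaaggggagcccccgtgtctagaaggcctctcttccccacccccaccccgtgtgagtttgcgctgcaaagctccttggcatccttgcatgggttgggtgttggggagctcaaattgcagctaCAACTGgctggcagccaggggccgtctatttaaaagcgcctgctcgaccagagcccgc
Igf2, chr7:142666817-142667066, minus strand: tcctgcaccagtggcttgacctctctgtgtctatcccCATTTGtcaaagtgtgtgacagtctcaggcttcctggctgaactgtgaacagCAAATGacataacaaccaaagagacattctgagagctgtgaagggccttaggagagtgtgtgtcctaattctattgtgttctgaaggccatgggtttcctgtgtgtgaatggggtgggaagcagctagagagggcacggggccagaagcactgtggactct

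The Igfbp2 stretch held 1 E-box, CACGTG, 142 bases before the start that RefSeq gives, and GC-boxes 113, 98 and 37 bases before it. The Igfbp5 stretch held 1 E-box, CAACTG, and no GC-box. The E-box lies 77 bases before the RefSeq start, which is 19 bases inside the gene as GENCODE draws it, and the stretch shown ends at the GENCODE edge. The Igf2 stretch held E-boxes 213 and 161 bases before the start of its most upstream transcript. The other Igf2 windows lie inside the gene and are not shown. They held no E-box, but a GC-box lay 17 bases before the start in a window and GC-boxes 100 and 85 bases before it in another. Which of the Igf2 starts these cells use was not tested. RefSeq gave 13 promoter windows for the 9 members, 4 of them for Igf2 and 2 for Igfbp2. CANNTG was found in 8 of the 13 and in 66.2% of all 32851 windows, and GGGCGG in 5 of the 13 and in 32.7% of all windows. The narrower E-box CAGCTG, which is contained in CANNTG, was found in 1 of the 13 and in 13% of all windows. CATTCC, the motif of TEAD factors, was in 4 and in 12.6% of all windows, and TATAAA in 2 and in 12.4%. These matches describe the letters of the windows and were compared with no binding data.

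Igf2 was the dominant ligand, and its level differed widely over the libraries, though not between all conditions. It stood at 67.6 FPKM in 10% FBS, 116 in 2% HS, 184 in 2% HS + exosome and 224 in 0.2% FBS, against 73.1 and 86.9 FPKM in 0.2% FBS + exosome. Both exosome libraries of 0.2% FBS were thus below each of the other differentiating libraries, and they lay next to growing cells. The gap between 10% FBS and exosome replicate 1 (0.11 on the log2 scale) was smaller than the gap between the exosome replicates (0.25), while replicate 2 was 0.36 above 10% FBS.

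With exosomes in 0.2% FBS, Igf2 was at 0.327 and 0.388 of the level without them. On the log2(FPKM + 1) scale, used for every change given here, this was a difference of -1.60 and -1.35, with a mean of -1.48 ± 0.17 (SD, n = 2). limma, fitted to all 6 libraries with 1 mean per condition, called the fall (SE 0.21, adjusted p = 0.00863, between 0.00678 and 0.249 over alternative fits of this contrast). A limma fit with 1 exosome effect common to both media, which is another contrast, gave an adjusted p = 0.726. In 2% HS the direction was the opposite, with Igf2 at 1.60 times its level without exosomes (log2 change 0.67, 1 library against 1). The difference between the exosome effects of the media was -2.15 (SE 0.32), and limma called it at an adjusted p = 0.0288, between 0.0188 and 0.252 over the alternative fits.

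The level of Igf2 was also above that of growing cells in both differentiation media, where serum and the exosomes it carries differ together. Cells in 0.2% FBS had 3.31 times the level of growing cells (log2 change 1.71), and cells in 2% HS had 1.71 times that level (log2 change 0.77). Each comparison rests on 1 library against 1, and only that of 0.2% FBS with growing cells passed a log2 change of 1. The library of 0.2% FBS is the control of the exosome comparison and also one side of this one, so a high value there moves the pair of changes in opposite directions. The same holds for every member. The exons of Igf2 share 3596 bases with Gm49394, an annotated gene on the same strand, and 98 bases with the antisense Igf2os, and reads of these genes may be split between them.

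Igf1, the other growth factor of the family, was low. It was listed at 0.802 FPKM in 10% FBS, 0.815 in 2% HS, 0.740 in 2% HS + exosome, 1.62 in 0.2% FBS, and 0.912 and 0.532 FPKM in 0.2% FBS + exosome. The library of 0.2% FBS was the highest of the 6, and the other 5 lay between 0.532 and 0.912 FPKM. The log2 change with exosomes in 0.2% FBS was -0.62 ± 0.23 (SD, n = 2), and in 2% HS it was -0.06. With a pseudocount of 0.1 FPKM in place of 1 the change in 0.2% FBS was -1.11. Igf2 exceeded Igf1 in every library, by 80.1 to 249 times.

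**Figure D1:**
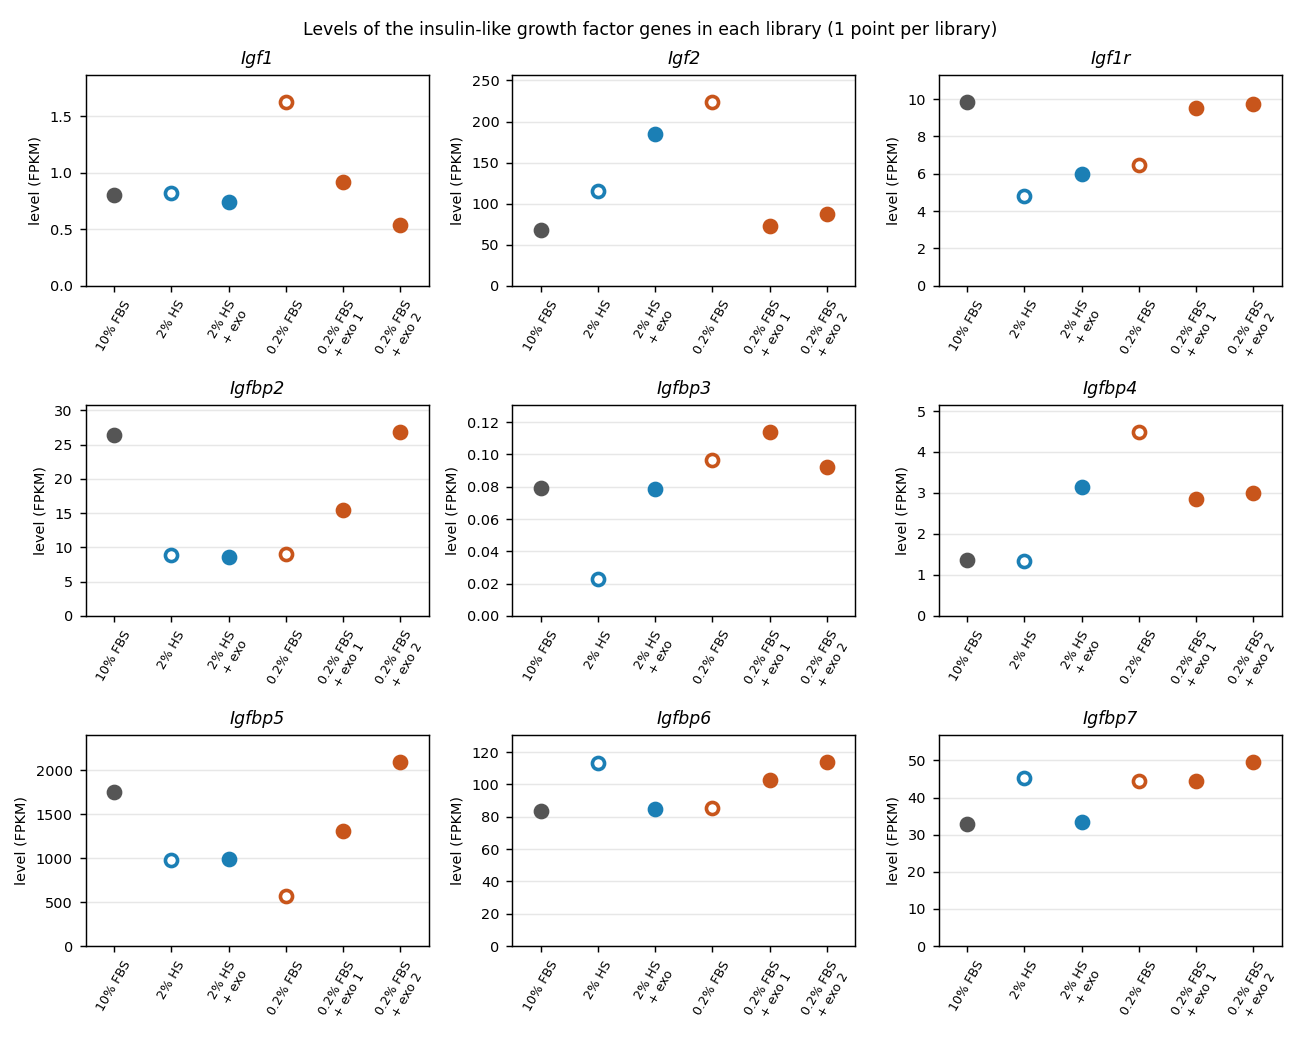
Level in FPKM (vertical axis, linear and starting at 0) of the 9 members in each of the 6 libraries, 1 point per library, with open points for differentiation medium without exosomes. Igf2 is highest in 0.2% FBS at 224 FPKM, where Igfbp5 is lowest at 571 FPKM. The pair of 0.2% FBS + exosome libraries lies near 10% FBS for Igf2. For Igfbp5 the pair lies apart, with replicate 1 below 10% FBS and replicate 2 above it.

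The receptor Igf1r was high in the libraries where Igf2 was low. Its level was 9.84 FPKM in 10% FBS, 4.80 in 2% HS, 5.98 in 2% HS + exosome and 6.48 in 0.2% FBS, and it was 9.53 and 9.73 FPKM with exosomes in 0.2% FBS. The growing library and both exosome libraries of 0.2% FBS formed a narrow upper group, and the other 3 libraries a lower one. Exosome replicate 1 was -0.04 and replicate 2 -0.02 from 10% FBS on the log2 scale, gaps about as small as that between the replicates. The change with exosomes in 0.2% FBS was 0.51 ± 0.02 (SD, n = 2), and limma did not call it (SE 0.16, adjusted p = 0.0711). In 2% HS it was 0.27, and the difference between media was 0.24 (SE 0.24, limma adjusted p = 0.630). Against 10% FBS the change was -0.54 in 0.2% FBS and -0.90 in 2% HS. The ratio of Igf2 to Igf1r was 6.86 in growing cells, 24.1 in 2% HS, 30.9 in 2% HS + exosome and 34.5 in 0.2% FBS, against 7.67 and 8.93 with exosomes in 0.2% FBS.

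Igfbp5, the main binding protein that muscle cells are known to secrete, was among the most abundant transcripts, ranking 56 of 10726 genes by mean level. It had 1747 FPKM in 10% FBS, 976 in 2% HS, 994 in 2% HS + exosome and 571 in 0.2% FBS, and it had 1304 and 2087 FPKM in 0.2% FBS + exosome. Growing cells lay between the exosome replicates, and the library of 0.2% FBS was below all others. Exosomes in 0.2% FBS went with 2.28 and 3.66 times the level, a log2 change of 1.19 and 1.87 (mean 1.53 ± 0.48, SD, n = 2).

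The change of Igfbp5 was the 27th largest upward change of 10726 genes, yet limma did not call it (SE 0.47, adjusted p = 0.0663). Over alternative fits of this contrast the limma adjusted p lay between 0.0286 and 0.504, and it was 0.705 for an exosome effect common to both media. The replicates differed by 0.68, beyond the 95th percentile of that gap over all genes (0.508). In 2% HS the level was nearly the same with and without exosomes (log2 change 0.03). The difference between media, 1.50 (SE 0.72), was not called by limma (adjusted p = 0.290). Against 10% FBS the log2 change was -1.61 in 0.2% FBS and -0.84 in 2% HS.

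Igfbp2, its neighbour on chromosome 1, binds Igf2 with preference. Its level was 26.4 FPKM in 10% FBS, 8.92 in 2% HS, 8.54 in 2% HS + exosome and 9.08 in 0.2% FBS, and 15.5 and 26.8 FPKM in 0.2% FBS + exosome. The 3 lowest libraries differed little from each other, and replicate 2 was level with growing cells while replicate 1 lay between. The rise with exosomes in 0.2% FBS was 0.71 and 1.46 (mean 1.09 ± 0.53, SD, n = 2), and limma called it (SE 0.27, adjusted p = 0.0385). Over alternative fits of this contrast the limma adjusted p lay between 0.0322 and 0.526, and it was 0.705 for an exosome effect common to both media. Only replicate 2 passed a log2 change of 1, and the gap of 0.75 between the replicates was again beyond the 95th percentile. In 2% HS the change was -0.06, and the difference between media of 1.14 (SE 0.42) was not called by limma (adjusted p = 0.195). Relative to 10% FBS the change was -1.45 in 0.2% FBS and -1.47 in 2% HS, which placed Igfbp2 at 0.343 and 0.337 of its level in growing cells.

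Igfbp4, an inhibitor of the ligands that is cut by the protease Pappa, differed with exosomes in the same direction as Igf2 in both media. Its level was low, and it passed a log2 change of 1 in neither medium. It had 1.36 FPKM in 10% FBS, 1.34 in 2% HS, 3.15 in 2% HS + exosome and 4.48 in 0.2% FBS, and 2.85 and 2.99 FPKM in 0.2% FBS + exosome. The first pair of libraries was lowest and 0.2% FBS highest, with all 3 exosome libraries between. The log2 change with exosomes was -0.48 ± 0.04 (SD, n = 2) in 0.2% FBS (limma SE 0.18, adjusted p = 0.105) and 0.83 in 2% HS. The difference between media, -1.31 (SE 0.27), missed the limma threshold at an adjusted p = 0.0622, between 0.0423 and 0.296 over the alternative fits. Igfbp4 was 1.22 higher in 0.2% FBS than in 10% FBS, and -0.01 from it in 2% HS.

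Igfbp6, which prefers Igf2 over Igf1, and Igfbp7, which binds these ligands weakly, varied least. Igfbp6 had 83.6 FPKM in 10% FBS, 113 in 2% HS, 84.7 in 2% HS + exosome, 85.1 in 0.2% FBS, and 103 and 114 FPKM in 0.2% FBS + exosome. Igfbp7 had 32.9, 45.2, 33.3, 44.4, 44.4 and 49.5 FPKM in the same order of libraries. Both were lower with exosomes in 2% HS (log2 changes -0.41 and -0.43). In 0.2% FBS the changes were 0.34 ± 0.10 for Igfbp6 and 0.08 ± 0.11 for Igfbp7 (SD, n = 2), and limma called neither (adjusted p = 0.271 and 0.799). The sign for Igfbp7 turned to -0.08 when libraries were scaled to the same 75th percentile. Exons of Igfbp7 share 85 bases with Polr2b on the other strand, and the strand setting of the quantification is not given in the sources used here. Igfbp3, a major carrier in blood, was between 0.0230 and 0.114 FPKM, which an estimate of depth puts at 1 to 9 reads per library, so no change in it was detectable at this depth.

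**Figure D2:**
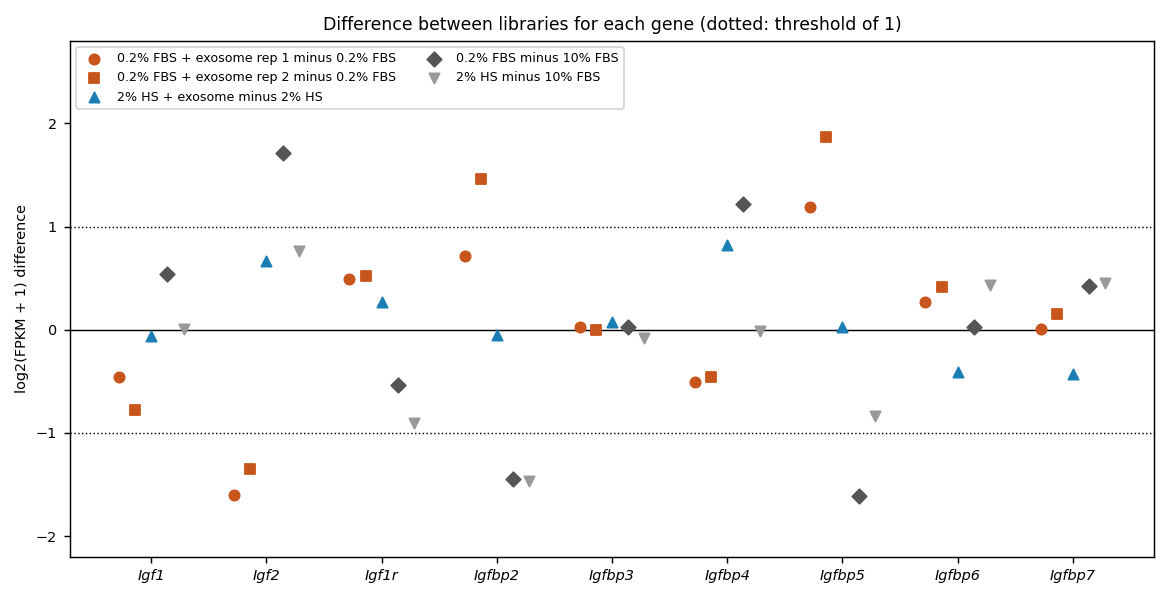
Difference in log2(FPKM + 1) (vertical axis) for each of the 9 members, 1 point for each of the 2 exosome libraries in 0.2% FBS, for exosomes in 2% HS and for each differentiation medium against 10% FBS, with dotted lines at the threshold of 1 in size. Igf2 and Igfbp5 pass the threshold in opposite directions in both exosome libraries of 0.2% FBS, while no member passes it with exosomes in 2% HS.

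The threshold is the one that the study applies, a log2 change above 1 or below -1, but taken here on log2(FPKM + 1). By it, 1 of the 7 tested members was higher (Igfbp5) and 1 lower (Igf2) in both exosome libraries of 0.2% FBS. Over all 10726 genes 0.895% were higher and 1.61% lower by that rule. With exosomes in 2% HS 0 members were higher and 0 lower, beside 0.354% and 0.298% of all genes. In 0.2% FBS against 10% FBS, Igf2 and Igfbp4 were higher and Igfbp2 and Igfbp5 lower, beside 1.79% and 0.69% of all genes. In 2% HS against 10% FBS only Igfbp2 passed, as lower, beside 1.79% of all genes higher and 0.522% lower. With no pseudocount and values below 1 FPKM raised to 1, Igfbp4 also passed with exosomes in 2% HS (1.23). Igf1r then also passed in 2% HS against 10% FBS (-1.04).

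The limma contrast within 0.2% FBS called Igfbp2 as higher and Igf2 as lower, 2 of 7 members, where it called 8.2% of all genes as higher and 4.33% as lower. The difference between media was called for 1 member, Igf2, as lower, beside 0.298% of all genes called higher and 0.867% lower. A fit of the 5 differentiating libraries with a medium term and 1 exosome effect called 0 members, and it called 0% of all genes as higher and 0% as lower, with 708 genes at an unadjusted p under 0.05. In that fit the single effect was -0.56 for Igf2, whose changes within the media had opposite signs (SE 0.44, adjusted p = 0.726), and 0.40 for Igf1r (SE 0.15, adjusted p = 0.705). In the fit behind the first pair of contrasts the spread came solely from the 2 libraries of 0.2% FBS + exosome, with 1 residual degree of freedom before limma shares information across genes.

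The median change of all tested genes with exosomes in 0.2% FBS was 0.14, and it was -0.002 once the libraries were scaled to the same 75th percentile. Scaling also took the share of higher genes among those past the threshold from 35.7% to 16.5%. Relative to that shift the changes were -1.64 for Igf2, 1.37 for Igfbp5, 0.94 for Igfbp2, 0.36 for Igf1r, -0.61 for Igfbp4 and 0.18 for Igfbp6, so their directions were kept.

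The binding proteins were also taken as a pool. Their summed level was 1891 FPKM in 10% FBS, 1145 in 2% HS, 1124 in 2% HS + exosome, 714 in 0.2% FBS, and 1469 and 2280 FPKM in 0.2% FBS + exosome. Igfbp5 made up 80.0% of the pool in 0.2% FBS and 85.3 to 92.4% in the other libraries, so the pool followed Igfbp5. Without Igfbp5 the sum lay between 130 and 193 FPKM. Per FPKM of Igf2 there were 28.0 FPKM of binding proteins in growing cells, 9.90 in 2% HS, 6.09 in 2% HS + exosome and 3.19 in 0.2% FBS, against 20.1 and 26.2 with exosomes in 0.2% FBS. The ratio was thus 6.30 and 8.22 times higher with exosomes in 0.2% FBS, where it was 1.63 times lower with them in 2% HS. It describes transcripts and not secreted protein.

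**Figure D3:**
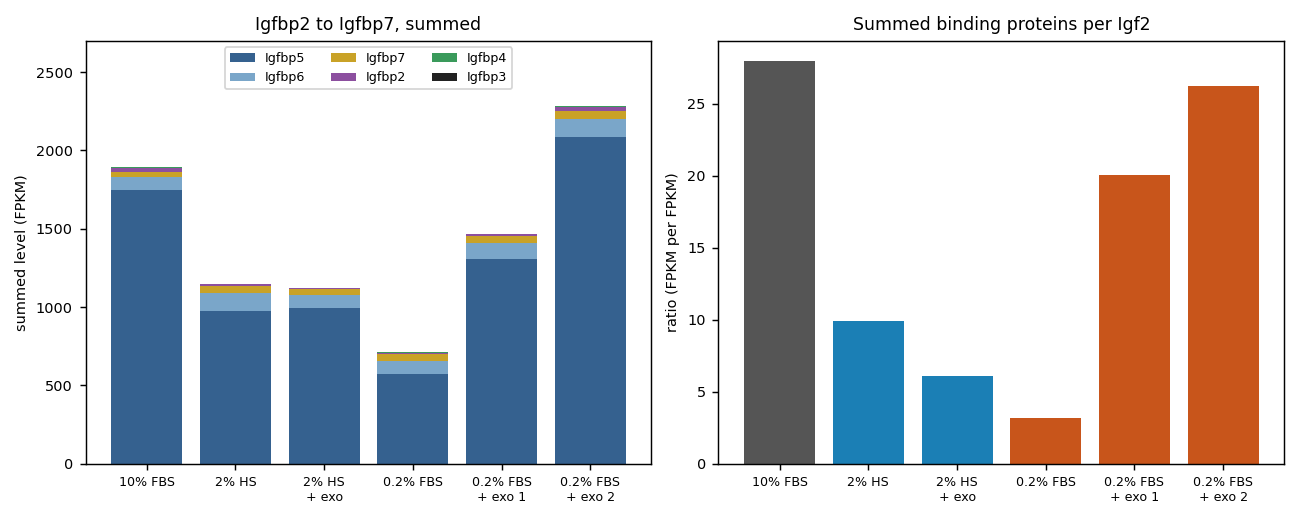
Summed level of Igfbp2 to Igfbp7 in FPKM, stacked by gene (left), and that sum divided by the level of Igf2 (right), 1 bar per library with axes starting at 0. The ratio is lowest in 0.2% FBS at 3.19 and lies at 20.1 and 26.2 in the 0.2% FBS + exosome libraries.

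Muscle genes were also followed. All 9 genes of a myoblast and myotube list were expressed, and their summed level was 3455 FPKM in 10% FBS, 5811 in 2% HS, 5766 in 2% HS + exosome, 6996 in 0.2% FBS, and 3288 and 2485 FPKM in 0.2% FBS + exosome. The sum was highest where Igf2 was highest and Igfbp5 lowest and was mostly Actc1, Myh3, Des and Myog, genes of the contractile apparatus, the cytoskeleton and myogenic commitment. In both exosome libraries of 0.2% FBS 3 of the 9 genes (Cdkn1c, Myh3 and Actc1) were past the threshold as lower, beside 1.61% of all genes. limma called Cdkn1c and Ttn as lower and did not call Myh3, Actc1, Des, Myog or Myod1 (adjusted p = 0.0587, 0.0792, 0.120, 0.120 and 0.472). Cdkn1c was low (mean 1.35 FPKM) and passed the filter of 1 FPKM only through the libraries where it was high, so its calls are a description only. Myf5, a factor of undifferentiated myoblasts, rose instead (0.96, limma adjusted p = 0.0196), and Cdh15, an adhesion protein, differed by 0.29 without a call, both singled out after their values were seen. In 2% HS the sum was nearly level with and without exosomes while Igf2 was 1.60 times higher with them. Single genes of the list moved there in both directions, 5 higher and 4 lower with exosomes (1 library against 1). Cdkn1c (log2 change 0.65) and Myog (0.35) were higher, as Igf2 was, while Myf5 (-0.52) and Des (-0.40) were lower. Actc1 (0.04) and Myh3 (-0.01), which make up much of the sum, were nearly level. The cultures hold myoblasts and myotubes, so fewer cells of a type and less RNA per cell cannot be told apart, and the part of this shift in the changes of the members was not tested. Defining genes of other cell types were scarce: summed levels were 1.27 to 1.62 FPKM for adipocytes, 0.110 to 0.284 for endothelial cells, 2.09 to 3.44 for leukocytes and 0 to 0.0322 for liver. Cidec, Kdr, Alb and Fgb were at 0 in all 6 libraries. The osteoblast list summed to 1.19 to 17.3 FPKM, with Bglap2 between 0.840 and 17.2 FPKM and the highest value in 2% HS + exosome.

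Other genes of the pathway were taken from the lists of its roles. Of 48 further genes in 8 lists (ligands, receptors, carriers, proteases and their inhibitors, substrates, PI3K to mTOR, FoxO factors, IGF2 mRNA-binding proteins), 38 reached 1 FPKM and 3 (Ins1, Insrr and Igfbp1) were at 0 in all libraries. With exosomes in 0.2% FBS, 19 of the 38 were higher in both exosome libraries, 13 were lower in both and 6 differed in direction. Their median change was 0.10, beside 0.14 over all genes, and 0 passed the threshold in both exosome libraries. limma called 3 of the 38 as higher and 1 as lower, beside 8.2% and 4.33% of all genes, so the shares were near or below those of all genes.

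The 3 that rose were Irs1 and Irs2, the docking proteins of the receptor, and Igf2bp2, which binds the Igf2 mRNA. Irs2 had 1.40 FPKM in 0.2% FBS and 4.27 and 3.47 FPKM with exosomes (log2 change 1.02, limma adjusted p = 0.0182). Irs1 went from 11.4 FPKM to 22.4 and 18.8 FPKM (0.80, limma adjusted p = 0.0248), and Igf2bp2 from 14.3 to 31.6 and 24.9 FPKM (0.92, limma adjusted p = 0.0210). The exosome libraries of each gene lay above its control. Pik3cb, a catalytic subunit of PI3K, fell from 3.75 FPKM to 2.16 and 1.89 FPKM (-0.65, limma adjusted p = 0.0483). Irs1, Irs2 and Pik3cb were singled out after their values were seen.

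The most abundant genes of the substrate, PI3K to mTOR and FoxO lists were not called in 0.2% FBS. The differences with exosomes were 0.33 for Shc1, an adaptor, -0.27 for Eif4ebp1, a repressor of translation that mTOR inactivates, and 0.27 for Foxo4, a transcription factor that Akt restrains (limma adjusted p = 0.220, 0.413 and 0.311). Htra1, the most abundant gene of the protease list and a serine protease that cuts Igfbp5, had 47.5 FPKM in 10% FBS and 125 in 0.2% FBS (log2 change 1.38), and 106 and 65.5 FPKM with exosomes. Its exosome libraries differed more from each other than replicate 1 did from the control, and limma did not call the change of -0.58 (adjusted p = 0.185). Stc2, an inhibitor of Pappa, was the 1 of 38 pathway genes past the threshold in 2% HS, beside 0.354% of all genes higher and 0.298% lower, at 2.39 FPKM in the control and 6.98 FPKM after exosomes had been added (a change of 1.23). In 0.2% FBS Stc2 had 3.13 FPKM without and 2.13 and 1.95 FPKM with exosomes, and limma called the difference between media (-1.67, adjusted p = 0.0327), beside 0.298% of all genes called higher and 0.867% lower.

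Igf2 was next set beside other imprinted genes and its neighbours on chromosome 7. Of 9 further imprinted genes tested, limma called 1 as higher and 1 as lower with exosomes in 0.2% FBS, beside 8.2% and 4.33% of all genes. The lower was Cdkn1c, an imprinted cell cycle inhibitor of differentiating muscle that also lies on chromosome 7, with 0.539 FPKM in 10% FBS, 1.24 in 2% HS, 2.53 in 2% HS + exosome, 2.94 in 0.2% FBS, and 0.582 and 0.277 FPKM in 0.2% FBS + exosome. Its order over the libraries was close to that of Igf2, with a log2 change of -1.47 (limma adjusted p = 0.00865) and a difference between media of -2.13 (limma adjusted p = 0.0288). With a mean of 1.35 FPKM, Cdkn1c passed the filter of 1 FPKM only through the libraries where it was high. Its calls and its likeness to Igf2 are therefore given as a description only. The higher was Sgce, a sarcoglycan singled out after its values were seen (0.85, limma adjusted p = 0.0182). Gnas, the most abundant imprinted gene, differed by -0.23.

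Of 9 tested neighbours of Igf2, 3 fell with exosomes in 0.2% FBS in the limma fit and 0 rose, beside 4.33% of all genes called lower and 8.2% higher. Tnnt3 and Tnni2, troponin subunits of fast muscle fibres, lie 134.8 and 206.4 kb from Igf2, and Tspan32, a tetraspanin, lies 338.2 kb away. Tnnt3 had 1627 FPKM in 0.2% FBS and 557 and 386 FPKM with exosomes (-1.81, limma adjusted p = 0.0290). Tnni2 changed by -1.79 (limma adjusted p = 0.0285) and Tspan32 by -1.24 (limma adjusted p = 0.00736). All 3 were also past the threshold as higher in 0.2% FBS and in 2% HS than in 10% FBS, beside 1.79% of all genes in each comparison. In 2% HS, Tnnt3 had 1547 FPKM without and 1576 FPKM with exosomes, unlike Igf2, which was 1.60 times higher with them. Ins2, the nearest neighbour, was between 0.822 and 2.72 FPKM and differed by 0.14.

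**Figure D4:**
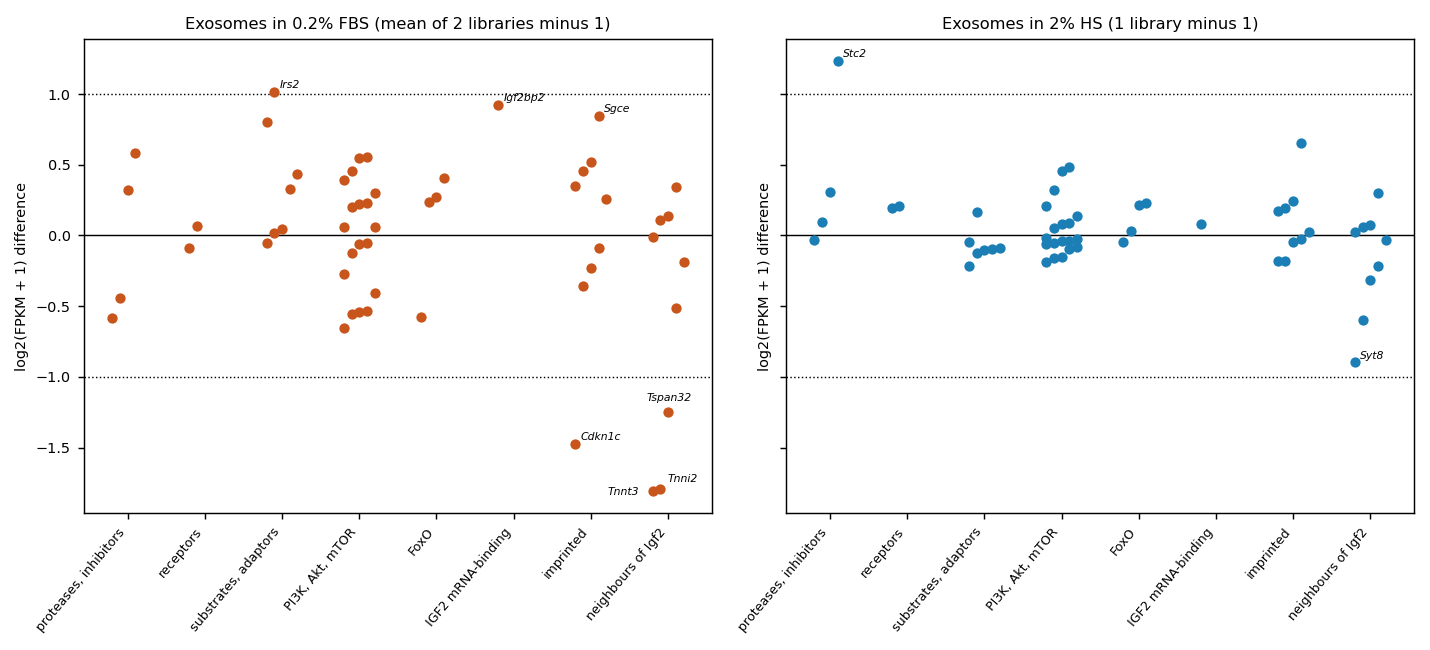
Difference in log2(FPKM + 1) (vertical axis) with exosomes in 0.2% FBS (left) and in 2% HS (right) for the tested genes, members left out, of the receptor, protease, substrate, PI3K to mTOR, FoxO, IGF2 mRNA-binding, imprinted and neighbour lists, 1 point per gene and list, with genes beyond 0.8 in size named. Cdkn1c, Tspan32, Tnni2 and Tnnt3 lie below the threshold of -1 in 0.2% FBS, Irs2 at 1.02 is just above 1 there (replicate 2 alone is at 0.90), and Stc2 is above 1 in 2% HS.

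The genes with the most similar levels over the 6 libraries were taken from 1295 genes that varied by at least 1 on the log2 scale. Those nearest to Igf2 by Pearson's r were Nfil3, a transcriptional repressor (0.954), Mid1ip1, a regulator of lipid synthesis (0.951), Cdkn1c (0.949), Smyd1, a muscle methyltransferase (0.932), and Shroom3, a regulator of cell shape (0.925). Those nearest to Igfbp5 were P2rx6, an ATP-gated channel (0.989), Lrrc17, a secreted leucine-rich protein (0.986), Ralb, a small GTPase (0.980), Rai14, an actin-associated protein (0.979), and Adora2b, an adenosine receptor (0.976). Igfbp2 was in place 73 for Igfbp5, with an r of 0.884. These are descriptions over 6 libraries that share 5 conditions, and no p was computed.

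The choice of these genes by likeness fixes that they follow Igf2 or Igfbp5, so their values are given as a description only. Smyd1 had 46.6 FPKM in 0.2% FBS and 18.0 and 17.2 FPKM with exosomes, and 31.9 FPKM in 2% HS and 37.4 FPKM with exosomes. All 5 genes nearest to Igf2 were higher with exosomes in 2% HS, by 0.23 to 0.65, and lower with them in 0.2% FBS. Of the genes nearest to Igfbp5, Adora2b had 4.61 FPKM in 0.2% FBS, 14.3 and 21.6 FPKM with exosomes, and 15.4 FPKM in growing cells. That gene, like Igfbp5, had its lowest level in 0.2% FBS and its highest in exosome replicate 2.

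**Figure D5:**
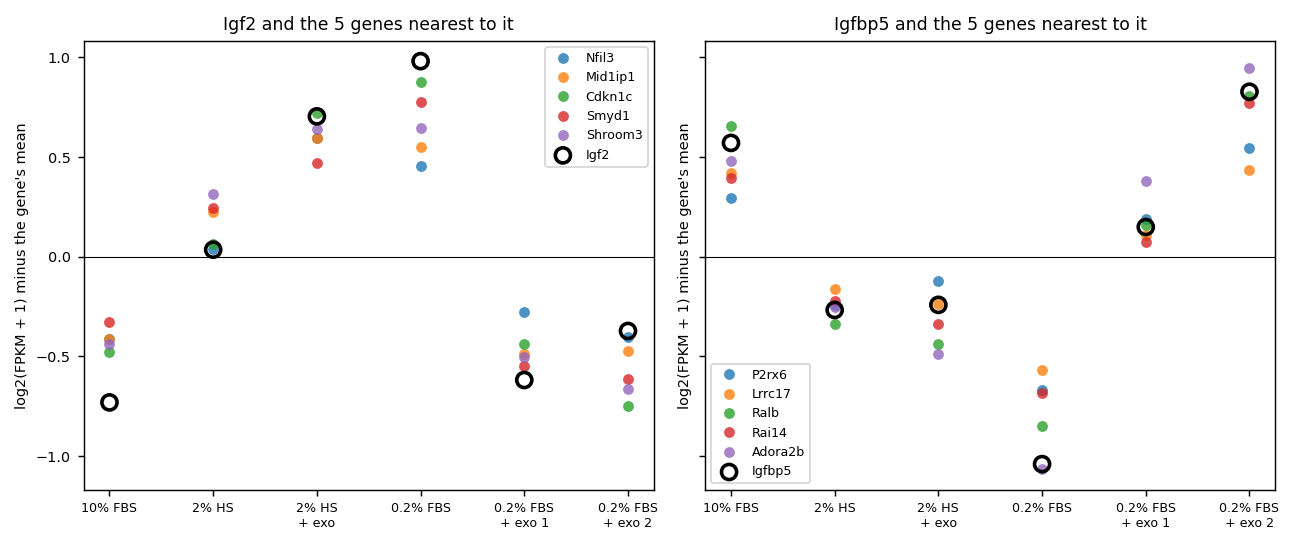
Level as log2(FPKM + 1) minus the mean of each gene over the 6 libraries (vertical axis) for Igf2 (left) and Igfbp5 (right) as open circles and for the 5 genes nearest to each, 1 point per library. Igf2 and its nearest genes are above their mean in 0.2% FBS and 2% HS + exosome and below it in both 0.2% FBS + exosome libraries, where Igfbp5 and its nearest genes are above theirs.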

How the data were processed

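RNA of C2C12 cells was sequenced as stranded mRNA libraries with 75 bp single-end reads. Per the labels, the authors trimmed reads with cutadapt 1.9.1 and mapped them to mm10 with TopHat2 2.1.0. They computed FPKM with Cufflinks and deposited 1 table of FPKM values, which are normalized for transcript length and library depth. The annotation and strand setting are not given in the sources used here. Libraries were grouped by the treatment in the labels.

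The 10 entries that repeat one of 5 names were left out, which left 20940 genes, and the 10726 with a mean of at least 1 FPKM were tested. Values were compared as log2(FPKM + 1). The study's threshold of 1 in size was applied, in 0.2% FBS to each exosome library. limma 3.58.1 (R 4.3.3) was fitted with a mean-variance trend, with 1 mean per condition (1 residual degree of freedom, single libraries assumed to vary like the replicated condition) or with a medium term and 1 exosome effect (2 residual degrees of freedom), and p-values were Benjamini-Hochberg adjusted over all tested genes.

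The members and gene lists were chosen with earlier results of these data known. Named genes are the members, genes of the pathway, imprinted and neighbour lists past the threshold with exosomes in either medium or in 2% HS against 10% FBS, the most abundant gene of each of these lists, and the 5 genes nearest to Igf2 and Igfbp5. Ins2 is named as the nearest neighbour of Igf2, and others are given as singled out later. Alternatives were another pseudocount, a floor, 75th percentile scaling, no filter, no trend and leaving out a replicate.

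FPKM hold no counts. Low values of 2442 single-transcript genes put the depth between 33700000 and 39000000 reads per library, with 73.35 to 75.72% of values within 0.1 of a whole read (20% if spread evenly), so whole reads were not recovered and no counting intervals were computed. On simulated data for 10726 genes with 200 changed, limma called 231 within 0.2% FBS (14.3% unchanged), 224 for the difference between media (17.0% unchanged) and 211 for the common effect (6.16% unchanged). Each share of unchanged genes was above the 0.05 set as the limit of the adjusted p. With no change simulated it called 5, 2 and 0. The simulation gave all 6 libraries of a gene the same spread. It therefore cannot show how limma behaves if single control libraries vary more than the replicated condition.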

Additional observations from a re-analysis of the deposited data

Results flagged for a closer look

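The exosome effect of 5 members had one direction in both libraries of 0.2% FBS + exosome and the opposite direction in 2% HS + exosome, which was also true of 45.7% of all 10726 genes. Subtracting the effect seen in horse serum from the one seen in 0.2% FBS gave -2.15 for Igf2, and limma called this difference (adjusted p = 0.0288), as it did for 0.298% of all genes in the higher and 0.867% in the lower direction. The difference was 1.14 for Igfbp2, -1.31 for Igfbp4, 0.76 for Igfbp6 and 0.51 for Igfbp7, and limma called none of these 4 (adjusted p = 0.195, 0.0622, 0.222 and 0.326). The effect in 2% HS rests on 1 library with and 1 without exosomes, and for Igfbp2 it was only -0.06. For Igfbp7 the change in 0.2% FBS was near 0 in replicate 1, and after scaling to the same 75th percentile it was -0.13 and -0.03 in 0.2% FBS and -0.39 in 2% HS, all in one direction.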

How the results depend on the processing

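Among the 7 tested members, Igf2, Igf1r, Igfbp2, Igfbp4, Igfbp5 and Igfbp6 kept their direction with exosomes in 0.2% FBS under the pseudocount, floor, scaling and filter alternatives. Igfbp7 changed sign with scaling, as given above, and Igfbp4, which was not called, was 0.08 in the fit with a common exosome effect, where Igfbp7 was -0.14. In 0.2% FBS 269 genes were past the threshold, against 434 with a pseudocount of 0.1 FPKM and 414 with values below 1 FPKM raised to 1. In 2% HS 70 became 126 and 123, in 0.2% FBS against 10% FBS 266 became 455 and 440, and in 2% HS against 10% FBS 248 became 402 and 375. With either of these settings 1 member, Igfbp4, passed in 2% HS and 2 members, Igfbp2 and Igf1r, were lower in 2% HS than in 10% FBS. They took the share of higher calls in 0.2% FBS against 10% FBS from 72.2% to 57.1% and 56.8%. Leaving out an exosome library gave 338 to 617 genes in 0.2% FBS (617 without replicate 1 and 338 without replicate 2) and 2 to 3 members, with Igfbp2 added without replicate 1.

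limma called 1343 genes within 0.2% FBS, against 241 with no filter and 0 with a common exosome effect. The difference between media had 125 calls, against 440 with no filter and 45 with no trend, and the common effect had 0 calls, against 21 with no filter. Igf2 lost its call within 0.2% FBS with no filter (adjusted p = 0.249) and in the common fit (0.726), and its call for the difference between media with no filter (0.252). Igfbp2 lost its call with scaling (0.0631), no filter (0.526), no trend (0.0643) and the common fit (0.705). Igfbp5 gained one with no trend (0.0286), and Igfbp4 gained one for the difference between media with scaling (-1.47, adjusted p = 0.0423). The cause was not tested.

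Within each medium the compared groups share at most 1 of the numbers in the labels, so no paired analysis was run there. Across both media the shared numbers follow the medium, which the fit with a common exosome effect holds as a term. Leaving out a replicate leaves the fit with 1 mean per condition no residual degrees of freedom, so that fit was not rerun. Depth limits Igfbp3, and with 1 control library per medium the spread of controls is unknown. For Igf1 the depth estimate gives 6 to 18 reads per library with its shortest coding transcript and 123 to 407 with its longest. Which of these applies is not known, so a limit from depth was not settled for Igf1.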
